A study of Mus musculus with 4 samples.

Results

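A set of 9 genes linked to pluripotency was followed in early somite mouse embryos: Pou5f1, Nanog, Utf1, Sall4, Lin28a, Lin28b, Trim71, Tdgf1 and Eras. They were taken as every probe set, the unit that the array reports, whose single gene symbol in the platform annotation is 1 of these 9 names, with no filter on brightness, which gave 14 of 45101 probe sets. The 9 genes were chosen by the measured values themselves, their log2 levels on the 4 arrays and the tissue differences in both experiments, so those values are described here with no test. The samples were 2 of foregut endoderm and 2 of tissue that is not endoderm, combining mesoderm of the heart with mesoderm and ectoderm of the head folds (called mesoderm/ectoderm below), from ARC/s embryos at embryonic day 8.5 with 4 to 5 somites (3 to 5 in the source label). Each sample pooled 15 to 20 tissue pieces, per the labels' protocols, and no sample was treated or mutant. Samples numbered 1 (experiment 1) were separated mechanically and samples numbered 2 (experiment 2) after trypsin and pancreatin, so an effect of the dissection cannot be told apart from one of the experiment.

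In the embryo, pluripotency belongs to the epiblast and fades as the germ layers form. Its transcription factors are switched off region by region, and the germ line retains several of them. RNA-binding proteins of the same stem cells, such as LIN28A and TRIM71, act in a timing pathway with the let-7 microRNAs: LIN28 blocks the maturation of let-7, and let-7 represses Lin28a and Trim71. TDGF1 (Cripto) is a coreceptor of Nodal, and ERAS is a Ras-like protein first described in embryonic stem cells.

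Foregut markers separated the tissues as labelled, whereas heart markers did not. Each of the 7 foregut endoderm markers was higher in endoderm by 2-fold or more in both experiments, with summed intensities of 4452 and 11130 in endoderm 1 and 2, against 318.5 and 1125 in mesoderm/ectoderm 1 and 2. Endoderm 2 is called ectoderm in 1 description field, and its other labels name foregut endoderm. Summed intensities of the 6 heart muscle markers were 8855 and 282.2 in endoderm 1 and 2, against 57.58 and 67270 in mesoderm/ectoderm 1 and 2. The sample labelled mesoderm/ectoderm 1 thus had the lowest heart signal and endoderm 1 the second highest. In pooled tissue, fewer cells of a type and less RNA per cell cannot be told apart.

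Part of the group passed a filter on brightness. This is a description only, since the measured levels were used to choose the genes. Whether the genes persist from an earlier stage was not tested, as no earlier stage was measured. At least 1 probe set of 5 genes, Eras, Tdgf1, Sall4, Lin28a and Trim71, had a log2 intensity above 5 on at least 2 arrays, the filter used here. The other 4 genes, Pou5f1, Nanog, Utf1 and Lin28b, did not pass it. By probe sets, 8 of the 14 passed, beside 29.5% of all probe sets. Of all 18193 genes with a single-symbol probe set, 42.9% passed. Levels of different probe sets are not comparable with each other, since each binds its target with its own strength, so only arrays are compared below.

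The RefSeq table used held start-site windows for 8 members, all but Sall4. Sequences around the start sites of 4 members are shown because Nanog and Pou5f1 lay at or within 0.1 log2 units of the lowest value on every array, whereas Lin28a and Trim71 were bright on every array. They run from 250 bases before to 50 bases after a RefSeq start site of build GRCm38.p6. Capitals mark the OCT4 and SOX2 composite element in Nanog, the nuclear receptor half-site (AGGTCA) in Pou5f1 and every CG in Lin28a and Trim71. The Nanog window is chr6:122707239-122707538 (plus strand), the Pou5f1 window chr17:35505782-35506081 (plus strand), the Lin28a window chr4:134018767-134019066 (minus strand) and the Trim71 window chr9:114564320-114564619 (minus strand).
Nanog: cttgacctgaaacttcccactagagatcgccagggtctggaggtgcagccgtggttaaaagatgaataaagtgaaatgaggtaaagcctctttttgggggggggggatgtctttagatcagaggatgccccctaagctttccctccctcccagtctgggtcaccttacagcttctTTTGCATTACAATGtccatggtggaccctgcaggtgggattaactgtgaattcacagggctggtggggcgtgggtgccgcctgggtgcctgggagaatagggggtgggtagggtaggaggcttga
Pou5f1: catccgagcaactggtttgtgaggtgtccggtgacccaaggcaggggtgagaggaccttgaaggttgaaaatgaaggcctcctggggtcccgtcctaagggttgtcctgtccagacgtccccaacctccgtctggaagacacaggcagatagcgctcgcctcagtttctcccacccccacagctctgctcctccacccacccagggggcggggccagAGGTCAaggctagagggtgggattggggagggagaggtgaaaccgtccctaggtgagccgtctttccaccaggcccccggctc
Lin28a: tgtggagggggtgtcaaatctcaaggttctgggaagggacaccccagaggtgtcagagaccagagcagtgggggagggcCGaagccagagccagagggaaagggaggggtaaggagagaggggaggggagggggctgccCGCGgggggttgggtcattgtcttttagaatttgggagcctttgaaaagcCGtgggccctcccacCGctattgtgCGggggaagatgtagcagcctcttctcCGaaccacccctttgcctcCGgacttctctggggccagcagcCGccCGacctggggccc
Trim71: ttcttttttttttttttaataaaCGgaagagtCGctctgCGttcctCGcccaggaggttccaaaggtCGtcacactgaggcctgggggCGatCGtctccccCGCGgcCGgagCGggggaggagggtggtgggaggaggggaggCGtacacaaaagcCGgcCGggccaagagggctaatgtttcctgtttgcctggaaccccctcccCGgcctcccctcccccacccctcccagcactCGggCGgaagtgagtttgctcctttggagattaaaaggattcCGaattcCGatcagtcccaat

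Motifs were searched on both strands of 32851 windows of this length, which belong to 27025 genes. The composite begins at position -75 of the Nanog window, counted from the start site, and was found in 2 windows, both of Nanog; its letters are those of the known Nanog element, so that count was set by the choice of letters. The half-site begins at position -33 of the Pou5f1 window shown and is common, being present in 16.3% of windows. The Nanog window shown also holds 1, on the other strand and left in lower case. A second Pou5f1 window, not shown, holds 0 half-sites and 6 CG dinucleotides. In the windows shown, CG dinucleotides numbered 4 for Nanog, 11 for Pou5f1, 10 for Lin28a and 19 for Trim71, and the median over all windows was 7. Matches of letters do not show binding, and methylation was not measured.

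Pou5f1 and Nanog were not above background in either tissue. Pou5f1 (OCT4, the POU factor of the epiblast and germ line; probe set 1417945_at) had log2 intensities of 2.254 and 2.272 in endoderm 1 and 2, against 2.282 and 2.290 in mesoderm/ectoderm 1 and 2. Nanog (the homeobox factor of naive pluripotency and germ cells; 1429388_at) was at 2.249 and 2.266 in endoderm, against 2.280 and 2.284 in mesoderm/ectoderm. The arrays' lowest values ran from 2.249 to 2.284, so Nanog lay at them and Pou5f1 just above. Values within 0.1 log2 units of an array's lowest value are called the floor here, and both genes were at the floor on all 4 arrays.

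Utf1, a chromatin-bound factor of embryonic stem cells, had 3 probe sets, and all 3 lay at the floor on all 4 arrays. In all, 5 of the 14 probe sets did so, and 38.3% of all probe sets did. The floor sets no order between tissues, and a level below it could not be detected on these arrays. No fold is given for these genes.

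**Figure D1:**
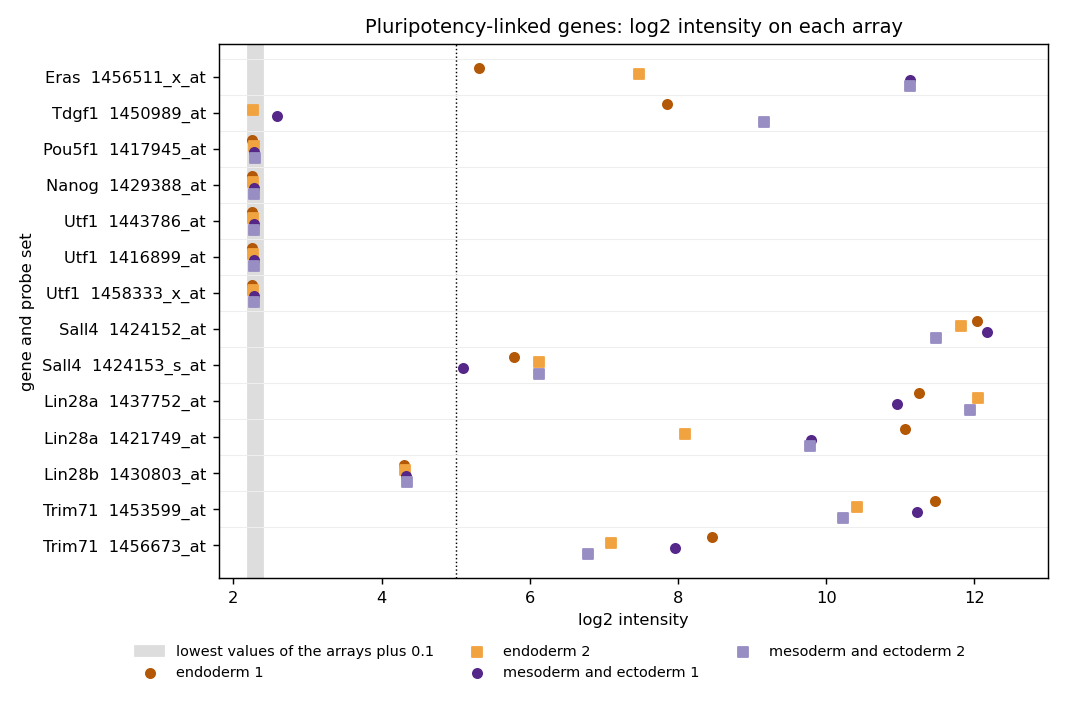
Log2 intensity (horizontal axis) of the 14 probe sets of the 9 genes on the 4 arrays; the grey band spans the arrays' lowest values plus 0.1 and the dotted line is the filter at 5. Pou5f1, Nanog and Utf1 sit in the band on all 4 arrays, and the Eras values of endoderm (5.319 and 7.471) lie left of those of mesoderm/ectoderm (11.129 and 11.126).

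Sall4 was the brightly measured transcription factor of the group. It is a zinc finger factor that works with OCT4 in stem cells and recruits the NuRD repressor complex. Probe set 1424152_at was at 12.039 and 11.825 in endoderm 1 and 2, against 12.167 and 11.480 in mesoderm/ectoderm 1 and 2. The endoderm values lay between those of mesoderm/ectoderm, and the difference of the means was 0.11 ± 0.32 (SE). Within the experiments it was -0.13 and 0.34, and over the tissues it was -0.07 with each array centred on its median. The range over the 4 arrays was 0.69 log2 units, while the median range of all 13288 probe sets above the filter was 1.17. Its dimmer probe set 1424153_s_at, whose suffix marks probes shared between transcripts, was at 5.793 and 6.127 in endoderm, against 5.104 and 6.129 in mesoderm/ectoderm, so the tissues overlapped there too. By root mean square difference of the mean-centred log2 profile over the 4 arrays, the 3 genes nearest to Sall4 among 7801 were Vps37a (0.014), Nvl (0.021) and Nupl1 (0.026).

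Lin28a was bright on every array by both of its probe sets. It encodes a cold-shock and zinc-knuckle protein that binds let-7 precursors and mRNAs. Probe set 1437752_at was at 11.248 and 12.054 in endoderm 1 and 2, against 10.961 and 11.937 in mesoderm/ectoderm 1 and 2. The arrays paired by experiment and not by tissue, and the tissue difference of 0.20 ± 0.56 (SE) was smaller than the shift of 0.81 in endoderm and 0.98 in mesoderm/ectoderm between experiment 2 and experiment 1. Its nearest profiles were those of Pnmt (0.030), Ctsd (0.058) and Ppp2r5d (0.060).

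The other Lin28a probe set did not show that pattern. Probe set 1421749_at was at 11.064 and 8.093 in endoderm 1 and 2, against 9.801 and 9.779 in mesoderm/ectoderm 1 and 2. Endoderm 1 was the highest array and endoderm 2 the lowest, with both other samples between. The tissue difference was 1.26 in experiment 1 and -1.69 in experiment 2, and 2.07% of probe sets above the filter were likewise at least 2-fold apart in opposite directions. For endoderm the probe sets disagreed on experiment 2 relative to experiment 1, by 0.81 for 1437752_at and by -2.97 for 1421749_at, so no direction between experiments is given for Lin28a.

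Lin28b, the paralogue of Lin28a with the same action on let-7, had 1 probe set (1430803_at). It was at 4.299 and 4.313 in endoderm, against 4.327 and 4.348 in mesoderm/ectoderm. Above the arrays' own lowest values these levels varied by only 0.017, so the probe set followed the floor and was not above background. Expression of Lin28b was not detectable at this precision.

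Trim71, an RNA-binding ubiquitin ligase and a let-7 target known as LIN41, differed by experiment more than by tissue. Probe set 1453599_at was at 11.466 and 10.419 in endoderm 1 and 2, against 11.229 and 10.226 in mesoderm/ectoderm 1 and 2. Probe set 1456673_at was at 8.459 and 7.097 in endoderm, against 7.956 and 6.784 in mesoderm/ectoderm. By both probe sets, each array of experiment 2 was below both arrays of experiment 1. The change in experiment 2 relative to experiment 1 was -1.047 in endoderm and -1.002 in mesoderm/ectoderm for the first probe set, and -1.36 and -1.17 for the second. Of the 7802 genes above the filter, 4.87% were likewise at least 2-fold lower in experiment 2 in both tissues.

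Between tissues Trim71 was 0.22 ± 0.64 (SE) log2 units apart by the first probe set and 0.41 ± 0.79 by the second. With the experiment as a block the SE was 0.025 and 0.075, since the differences within the experiments were alike, at 0.24 and 0.19 by the first probe set and 0.50 and 0.31 by the second. All 4 were below 2-fold. The second probe set stayed positive under each scaling tried, at 0.27 and 0.22 after quantile normalization and 0.26 and 0.20 after median centring. The first gave 0.15 and 0.29 after quantile normalization and -0.003 and 0.08 after median centring. Its nearest profiles were those of Ascc3 (0.023), Noct (0.033) and Ddx46 (0.034).

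A pair of let-7 sequences and a pair of precursors are shown because Lin28a, bright here, encodes the protein that binds them. Capitals mark the seed (bases 2 to 8) in the mature forms, shared by 11 of 1679 mature mouse miRNAs in the RefSeq table used here, and the GGAG that the LIN28 zinc knuckles recognise in the hairpins.
mmu-let-7a-5p: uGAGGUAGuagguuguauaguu
mmu-let-7g-5p: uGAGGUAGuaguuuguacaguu
Mirlet7g hairpin: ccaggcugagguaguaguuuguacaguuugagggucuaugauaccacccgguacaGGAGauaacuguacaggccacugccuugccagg
Mirlet7b hairpin: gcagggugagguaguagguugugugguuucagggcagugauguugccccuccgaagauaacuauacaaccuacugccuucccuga

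Of the 11 let-7 hairpins in the table, 9 hold GGAG, and Mirlet7b and Mirlet7c-2 do not. It is held by 44.5% of 1005 mouse hairpins outside chromosome 18. These letters are a description, and let-7 itself was not measured on the arrays. Of 22 genes of the LIN28, let-7 and TRIM71 axis with a probe set, 18 were above the filter. They include the let-7 target Hmga2, a chromatin protein of growing embryonic tissue, at 13.634 and 12.644 in endoderm 1 and 2, against 12.662 and 11.912 in mesoderm/ectoderm 1 and 2. Drosha, the nuclease that begins miRNA processing, was at 12.438 and 12.572 in endoderm, against 12.196 and 11.766 in mesoderm/ectoderm. No gene of this list was 2-fold or more apart, with equal sign, in both experiments.

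Tdgf1 was high on 1 array of each tissue. Probe set 1450989_at was at 7.850 and 2.266 in endoderm 1 and 2, against 2.584 and 9.165 in mesoderm/ectoderm 1 and 2. Endoderm 1 and mesoderm/ectoderm 2 were high, endoderm 2 was at the floor and mesoderm/ectoderm 1 was just above it. In experiment 1 Tdgf1 was 38.5-fold higher in endoderm (log2 difference 5.27, against an array just above the floor). In experiment 2 it was at least 119-fold lower in endoderm (-6.90, with endoderm 2 at the floor). The mean difference of -0.82 ± 3.81 (SE) therefore describes neither experiment. Leaving out endoderm 1 gave -3.61, leaving out endoderm 2 gave 1.98, leaving out mesoderm/ectoderm 1 gave -4.11 and leaving out mesoderm/ectoderm 2 gave 2.47.

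The same 2 arrays were high for heart muscle, endothelium and primitive blood. Besides its role in the epiblast, mouse Tdgf1 is known from the early heart and its outflow tract. Of the 6 heart muscle markers, all above the filter and none at the floor on all arrays, 5 were at least 2-fold apart in opposite directions in the experiments, as Tdgf1 was. Their summed intensity was, as given above, 8855 in endoderm 1 and 282.2 in endoderm 2, against 57.58 in mesoderm/ectoderm 1 and 67270 in mesoderm/ectoderm 2. The exception, Nkx2-5, a cardiac transcription factor gene also active in foregut, was at 5.501 and 7.661 in endoderm, against 3.711 and 6.911 in mesoderm/ectoderm. The summed intensity of 5 endothelium markers, of which 3 were above the filter and Pecam1 was at the floor, was 476.8 and 49.17 in endoderm, against 67.47 and 281.4 in mesoderm/ectoderm. That of 4 primitive blood markers, of which 2 were above the filter, was 2379 and 204.3 in endoderm, against 404.8 and 2441 in mesoderm/ectoderm. The other 2, Hba-x and Gata1, were at the floor on endoderm 1 (2.341 and 2.260). Of 4 neural crest and head mesenchyme markers, 1, Twist1, also went opposite ways (2.17 and -4.71). The part of heart, vessel, blood or other tissue in the Tdgf1 values was not tested.

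The genes with profiles most like Tdgf1 were muscle genes. These were Ldb3, a Z-disc protein, at 0.26, Synpo2l, a cardiac actin-associated protein, at 0.44 and Smyd1, a muscle methyltransferase, at 0.47. Ldb3 was at 7.713 and 2.535 in endoderm 1 and 2, against 2.743 and 8.760 in mesoderm/ectoderm 1 and 2. With only 4 arrays, likeness of profile says little about any single gene.

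**Figure D2:**
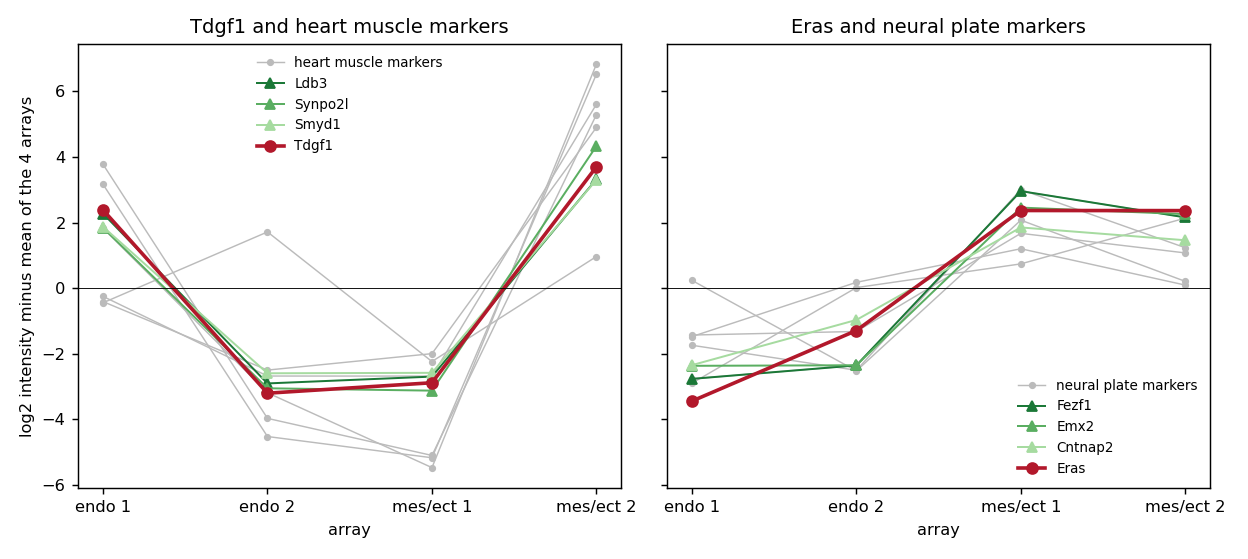
Log2 intensity minus the mean of the 4 arrays (vertical axis) for Tdgf1 (left) and Eras (right) on each array, with the 3 genes of most similar profile (green) and the fixed markers (grey). Tdgf1 and its 3 nearest genes are high on endoderm 1 and mesoderm/ectoderm 2, while Eras is high on both mesoderm/ectoderm arrays. Of the 6 heart markers, 5 are higher on endoderm 1 and mesoderm/ectoderm 2 than on either other array. Of these, Myl2 and Tnni1 still lie below their own mean on endoderm 1.

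Of 17 other genes of the Nodal pathway with a probe set, 8 were above the filter. None of these 8 was 2-fold or more apart with opposite signs, and 1, the signal transducer Smad3, was at least 2-fold higher in endoderm in both experiments (1.01 and 1.65). It was at 8.770 and 9.401 in endoderm 1 and 2, against 7.760 and 7.750 in mesoderm/ectoderm 1 and 2, and after quantile normalization or median centring it no longer reached 2-fold in both. In values chosen after they were seen, the ligand gene Nodal was at 2.931 and 2.926 in endoderm, against 2.940 and 2.935 in mesoderm/ectoderm, and Cfc1, the other Cripto-family coreceptor gene, reached no more than 3.273 on any array. Lefty2, a Nodal antagonist gene below the filter and also named after its values were seen, had the signs of Tdgf1, at 3.714 and 2.304 in endoderm, against 2.338 and 3.819 in mesoderm/ectoderm.

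Eras was the single member 2-fold or more apart, with equal sign, in both experiments. Probe set 1456511_x_at was at 5.319 and 7.471 in endoderm 1 and 2, against 11.129 and 11.126 in mesoderm/ectoderm 1 and 2. Both endoderm arrays lay below both others. The differences were -5.81 in experiment 1 and -3.65 in experiment 2, with a mean of -4.73 ± 0.95 (SE), or 26.6-fold lower in endoderm. Without endoderm 1 it was -3.66 and without endoderm 2 it was -5.81. As background, 1.24% of the 7802 genes above the filter were at least 2-fold lower in endoderm in both experiments and 3.54% higher (by probe sets 1% lower and 3.57% higher), and nothing is read from the count of members, since the same differences chose them.

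The identity of this signal rests on 1 probe set. Its suffix marks probes that may also match other sequences. In the RefSeq gene table Eras overlaps its neighbour Pcsk1n, which lies on the opposite strand and encodes a neuroendocrine inhibitor of prohormone processing. Pcsk1n (1416965_at) was at 4.345 and 4.362 in endoderm, against 4.959 and 5.813 in mesoderm/ectoderm, also lower in endoderm on both arrays. It was above 5 only on mesoderm/ectoderm 2 and so below the filter. Its endoderm values moved only as the lowest values of those arrays did (2.249 and 2.266). Hdac6, a deacetylase gene that lies next to Eras on the same strand without overlap (1448928_at), was at 6.874 and 7.231 in endoderm, against 8.297 and 8.123 in mesoderm/ectoderm, and was lower in endoderm as well. Whether these probes read Eras, a neighbour or another transcript was not tested.

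Neural plate genes shared the direction of Eras, and so did some markers of other tissues. Of the 6 neural plate markers, all above the filter, 5 were at least 2-fold lower in endoderm in both experiments. The exception, Otx2, was at 8.227 and 9.881 in endoderm, against 10.905 and 9.797 in mesoderm/ectoderm. The summed intensity of all 6, Otx2 included, was 448.7 and 1182 in endoderm, against 3331 and 2165 in mesoderm/ectoderm. The 3 profiles nearest to Eras were those of the forebrain factors Fezf1 (0.70) and Emx2 (0.76) and the neuronal adhesion gene Cntnap2 (0.77). Fezf1 is also 1 of the 6 markers. Of 4 neural crest and head mesenchyme markers, Pax3 was at least 2-fold lower in endoderm in both experiments, 1 was higher and 1 went opposite ways. Of 4 surface ectoderm markers, Tfap2a was lower in both and 2 were higher. The part of neural or other tissue in the Eras values was not tested. Of 17 genes of the RAS, PI3K and TOR pathways with a probe set, 15 were above the filter and 0 were 2-fold or more apart, with equal sign, in both experiments. The growth regulator Rheb was at 11.314 and 11.712 in endoderm 1 and 2, against 11.953 and 12.186 in mesoderm/ectoderm 1 and 2. Pik3cd, a catalytic subunit of PI3K, was at 10.678 and 12.369 in endoderm, against 8.415 and 11.548 in mesoderm/ectoderm.

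**Figure D3:**
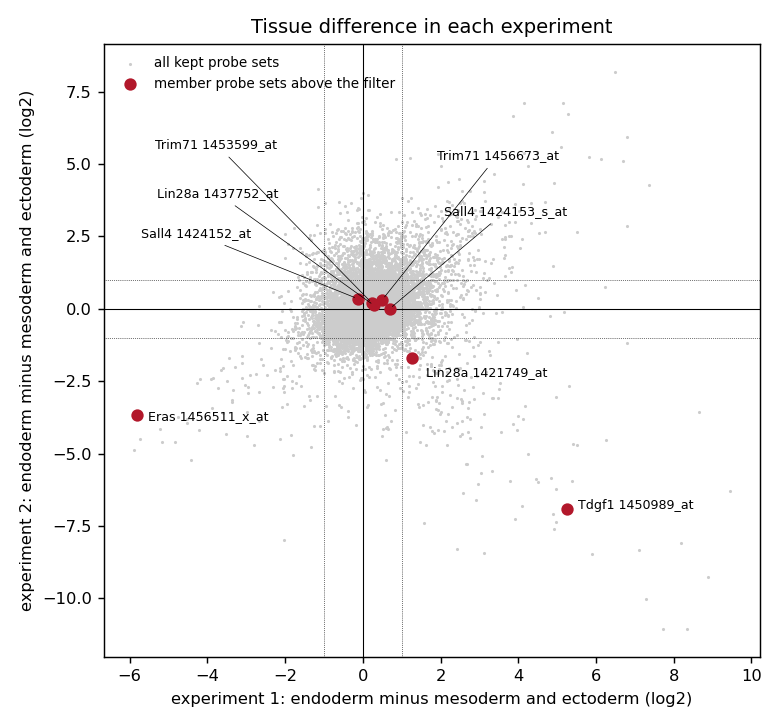
Endoderm minus mesoderm/ectoderm on the log2 scale in experiment 1 (horizontal) and experiment 2 (vertical) for the 13288 probe sets above the filter (grey) and the 8 member probe sets among them (red); dotted lines mark 2-fold. Eras lies low in both experiments, Tdgf1 and Lin28a 1421749_at go opposite ways, and the other 5 lie within 2-fold in both experiments.

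Related gene lists place the members among other genes of pluripotency and of the germ line. Over 8 lists, 86 genes were above the filter, of which 5 (5.81%) were higher by 2-fold or more in endoderm in both experiments and 5 (5.81%) lower, against 3.54% and 1.24% of all genes above the filter. The count higher was 11 without endoderm 1, 8 without endoderm 2, 9 without mesoderm/ectoderm 1 and 8 without mesoderm/ectoderm 2, the remaining array of that tissue then serving in both experiments. The lists were chosen with earlier results of these data known. Limma called 0 of 13288 probe sets at an adjusted p under 0.05 (0% called), so none of the list genes was called. At an unadjusted p under 0.05 there were 395 higher and 105 lower ones among these probe sets.

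Of 24 other naive and core pluripotency genes with a probe set, 16 were below the filter and 7 of them were at the floor on all 4 arrays. The median difference of the 8 above it was 0.25 in experiment 1 and 0.59 in experiment 2, beside 0.15 and 0.01 for all genes above the filter. Tbx3, a T-box factor of stem cells that also acts in foregut and liver, was at 7.360 and 8.851 in endoderm, against 3.990 and 4.192 in mesoderm/ectoderm. Sox2, named after its values were seen, is the stem cell partner of OCT4 and a factor of neural plate and foregut, and it was at 10.568 and 11.706 in endoderm, against 11.630 and 11.734 in mesoderm/ectoderm.

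Of 10 epiblast genes above the filter, 3 were at least 2-fold lower in endoderm in both experiments and 1 was higher, with medians of -0.91 and -1.05. Neural plate markers moved with them, with 5 of 6 lower in both experiments and medians of -3.37 and -2.56, and Otx2 is in both lists. The part of neural tissue in these values was not tested. Pou3f1, a POU factor of the primed epiblast and of neural tissue, was at 6.675 and 3.425 in endoderm, against 8.465 and 8.467 in mesoderm/ectoderm. Zic2, a zinc finger factor of epiblast and neural plate, was at 3.834 and 2.572 in endoderm, against 5.777 and 5.863 in mesoderm/ectoderm. Etv5, an ETS factor downstream of FGF, was at 9.606 and 9.602 in endoderm, against 7.447 and 7.023 in mesoderm/ectoderm.

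Germ cells carry Pou5f1 and Nanog at this age. The 3 fixed germ cell markers with a probe set were near the floor. Which of these markers germ cells of this age express was not measured here. Dppa3 and Prdm14 were at the floor on all 4 arrays, and the germ cell helicase gene Ddx4 was between 2.460 and 2.495 and followed it. Their summed intensity was 15.21 and 15.4 in endoderm, against 15.54 and 15.59 in mesoderm/ectoderm. Of the 16 primordial germ cell genes with a probe set, 7 were above the filter. Prdm1, a repressor of germ cells and early endoderm, was at 8.729 and 8.198 in endoderm, against 5.142 and 4.865 in mesoderm/ectoderm. Tfap2c, an AP-2 factor of germ cells and surface ectoderm, was at 7.333 and 6.589 in endoderm, against 10.698 and 9.799 in mesoderm/ectoderm.

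Genes of the caudal epiblast, the other site of late Pou5f1 expression, were mostly at the floor as well. Of 12 caudal epiblast and primitive streak genes with a probe set, 9 were at the floor on all 4 arrays, among them Cdx2 and Fgf8. Whether these genes are limited to caudal cells, or their probe sets respond, was not tested. Wnt3a passed the filter at 5.592 and 5.610 in endoderm, against 5.623 and 5.627 in mesoderm/ectoderm, but moved only as the lowest values did. Sp5, a Wnt target, was at 4.843 and 7.477 in endoderm, against 4.833 and 5.377 in mesoderm/ectoderm, and only endoderm 2 stood out.

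Repressors of Pou5f1 differed in whether they were detected. Of 24 genes of repressors and of SALL4 and NANOG partner complexes with a probe set, 19 were above the filter and 2, Rara and Cdx2, were at the floor on all 4 arrays, with 1 at least 2-fold higher and 1 lower in endoderm in both experiments. Nr6a1, the germ cell nuclear factor that binds repeats of AGGTCA in the Pou5f1 promoter and was named after its values were seen, was at 9.761 and 10.107 in endoderm, against 10.947 and 10.707 in mesoderm/ectoderm. Nr2f1, the nuclear receptor COUP-TFI, was at 8.787 and 2.266 in endoderm, against 10.812 and 10.238 in mesoderm/ectoderm, and endoderm 2 was at the floor. Sall1, a paralogue of Sall4, was at 11.768 and 11.015 in endoderm, against 10.336 and 8.925 in mesoderm/ectoderm.

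**Figure D4:**
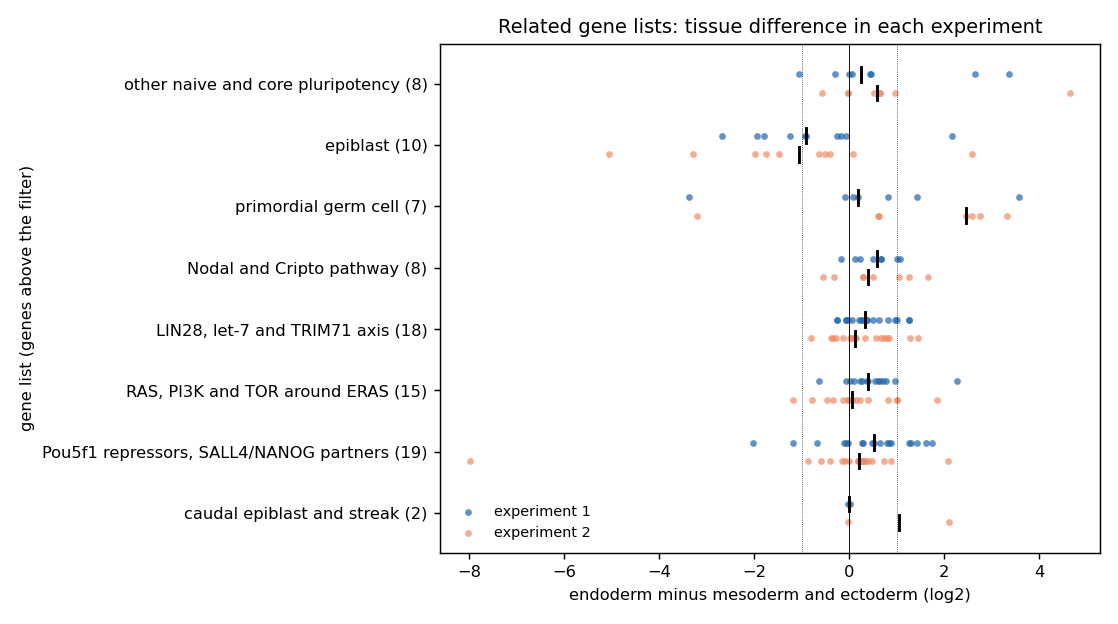
Endoderm minus mesoderm/ectoderm on the log2 scale (horizontal axis) for the genes above the filter in 8 lists, each point a gene in experiment 1 (blue) or 2 (orange), with the median as a black bar and dotted lines at 2-fold. The epiblast medians lie at -0.91 and -1.05, and no gene of the LIN28 list lies beyond 2-fold on the same side in both experiments.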

How the data were processed

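Affymetrix MOE430 arrays measured amplified RNA of 4 samples (2 rounds, per the labels' protocols). The authors deposited 1 intensity per probe set, made with GC-RMA run in GenePattern according to the series' design text (the submitters' processing notes name RMA); software versions were not given in the sources used here. Values between 4.753 and 75550 showed a linear scale. Log2 was taken here, 64 control probe sets were left out, and probe sets above 5 on at least 2 arrays (13288 of 45037) were kept for counts. The brightest kept probe set stood for a gene. Gene names came from GEO's platform annotation. Limma 3.58.1 in R 4.3.3 (lmFit, eBayes, two-sided, Benjamini-Hochberg, 0.05) fitted tissue with no block, on kept probe sets for calls and on all probe sets for SE values. The fit was also run on simulated data with spread and changes set by hand, so its power on these arrays was not tested. The 2 arrays per tissue limit precision, and a p-value covers only the spread between these pools. Equal sample numbers mark a shared dissection per the labels' protocols, and same-numbered arrays deviated together (r = 0.56 across kept probe sets). Of each array's probe sets, 41.4% to 44.8% were at the floor. Named genes were all members, in each list up to 3 genes that were 2-fold or more apart in both experiments (otherwise the 2 of highest mean), floor markers and the 3 nearest profiles. Members and lists were chosen with earlier results of these data known. Alternatives were other scalings, filters and folds, an offset of 16, the replicate block and leaving out each array. Sequences are RefSeq's (GRCm38.p6).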

Additional observations from a re-analysis of the deposited data

Results flagged for a closer look

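Tdgf1 (probe set 1450989_at) went opposite ways in the experiments, as endoderm minus mesoderm/ectoderm was 5.27 in experiment 1 and -6.90 in experiment 2. The second Lin28a probe set, 1421749_at, did so with 1.26 and -1.69, whereas probe set 1437752_at gave 0.29 and 0.12. The summed intensity of the 6 heart muscle markers had log2 ratios of 7.26 and -7.90. Each experiment holds 1 array of either tissue, so these differences between experiments were not tested.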

How the results depend on the processing

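Limma called 0 probe sets between tissues under every alternative, with and without the replicate block, where the lowest adjusted p ran from 0.0847 (no filter) to 1.00 (without endoderm 1) and the replicate block gave 0.351. At an unadjusted p under 0.05 the replicate block gave 968 higher and 358 lower, against 395 and 105 without it. Between experiments limma called 0 as well, with 2172 higher and 1824 lower in experiment 2 at an unadjusted p under 0.05, and leaving out an array left no residual degree of freedom for that fit. The 607 probe sets 2-fold or more apart, with equal sign, in both experiments (474 higher, 133 lower) became 169 at 4-fold and 1609 at 1.5-fold, and 820 to 1622 with an array left out. The split was 367 higher and 194 lower after quantile normalization and 347 and 211 after median centring, as the median difference of all kept probe sets moved from 0.10 to -0.02 and -0.08. Among list genes the 5 lower became 3 with the filter at 6, where Zic2 and Sfrp2 were left out, and the 5 higher became 9 when any probe set of a gene could count and 8 to 11 with an array left out; with an array left out the 5 lower became 5 to 7. Of the 10, Sall1 was lost without endoderm 1 or mesoderm/ectoderm 2, and Sfrp2 without endoderm 2 or mesoderm/ectoderm 1. For the members, 69 of 81 alternative values moved by no more than the spread between arrays and 12 by more. All 12 were in Pou5f1, Nanog, Utf1 and Lin28b, which were not above background. The 69 are no measure of stability. With 2 arrays per tissue, leaving out 1 cannot move a difference beyond that spread. The replicate block, and the mean over probe sets of a gene with 1 probe set, leave the difference as it was. No alternative turned the sign of Eras. Eras ran from -5.81 to -3.66 with an array left out and from -4.91 to -4.82 under the other scalings. Sall4 ran from -0.23 to 0.45, Lin28a from -0.29 to 0.69 and Trim71 from -0.31 to 0.74 with an array left out, which leaves the experiments unequal between tissues. With the replicate block the SE was 0.83 for Eras, 4.70 for Tdgf1, 0.18 for Sall4, 0.07 for Lin28a and 0.02 for Trim71, by the brightest probe set. Signal over background limits what can be said of the 4 dim genes.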
